A study of Mus musculus with 12 samples.

Results

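The genes described here are 36 genes of the contractile apparatus and of calcium handling in skeletal muscle, taken by symbol from a fixed list out of the 24062 genes in the files. Of these, 10 are isoforms typical of slow fibres, 15 are isoforms typical of fast fibres and 11 are shared by both or assigned to neither. All 36 were found and all 36 were tested in muscle. They were measured by RNA sequencing of gastrocnemius, a calf muscle, and of liver from 6 mice, matched across tissues by the number, genotype and age in the labels, which gives 12 libraries in 4 groups of 3. The mice were female, of the strain C57BL/6N, on chow and 7.4 to 9.0 weeks old. Animals 6, 8 and 9 were wild type, and animals 5, 7 and 12 carried 2 copies of R135W, a missense allele of Mars2. Mars2 encodes the enzyme that loads methionine onto the mitochondrial transfer RNA. How the allele was made, and whether the animals were littermates, is not given in the sources used here, and both genotypes lack any other labelled allele or treatment.

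A muscle fibre shortens when myosin heads of the thick filament pull on actin of the thin filament. Calcium released from the sarcoplasmic reticulum binds troponin C, troponin I and T pass the signal to tropomyosin, and tropomyosin moves off the myosin sites on actin. The calcium pump of the reticulum then ends the contraction. Most of these proteins exist as a slow and a fast isoform from separate genes, and a fibre mostly uses 1 set: slow type I fibres express Myh7 and its partners, and fast type IIA, IIX and IIB fibres express Myh2, Myh1 and Myh4. Mouse gastrocnemius is known as a predominantly fast muscle with a small slow region. In whole tissue, fewer slow fibres and less slow isoform RNA per fibre cannot be told apart.

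Total counts ran from 23895670 to 28669346 in gastrocnemius and from 20751583 to 30460237 in liver. The 36 genes held 26.3% to 30.2% of all counts in each gastrocnemius library and 0.0280% to 0.0389% in each liver library, so the muscle label fits its defining genes. Mars2 stood at 12.6, 10.7 and 11.9 CPM in wild type gastrocnemius 6, 8 and 9 and at 10.5, 9.28 and 8.59 CPM in R135W 5, 7 and 12 (log2 fold change of -0.31, adjusted p = 0.295). A missense allele need not lower the RNA, so this checks no label. CPM are counts per 1000000 counts of the library, after scaling by TMM. The liver gene Alb was at 28.5 CPM (771 counts) in the gastrocnemius library of R135W 12, at 5.00 in wild type 6 and at 0.248 to 2.48 in the other 4 muscle libraries.

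The muscle libraries were dominated by fast isoforms. Levels between genes are given as TPM, which corrects for the exon length in the files. The 15 fast genes together held 19.3% to 22.3% of all TPM in a library, the 11 shared genes 7.55% to 8.87% and the 10 slow genes 0.251% to 0.360%. Skeletal alpha actin, Acta1, ranked first of all genes with 35302 ± 1355 TPM (wild type mean ± SD, n = 3), followed by the muscle creatine kinase Ckm and the fast troponins Tnnc2, Tnnt3 and Tnni2. The highest slow gene was the essential light chain Myl3, at 829.8 ± 14.1 TPM and rank 127. The slow genes Tnnt1 (348 ± 9.13 TPM), Myh7 (333 ± 44.3 TPM) and Tnnc1 (333 ± 20.6 TPM) held ranks 383, 397 and 398, and their means lay within 1 SD of Myh7. Sarcolipin, Sln, a small inhibitor of the calcium pump, was the lowest member at 15.5 ± 6.34 TPM and rests on 56 to 151 counts per library.

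**Figure D1:**
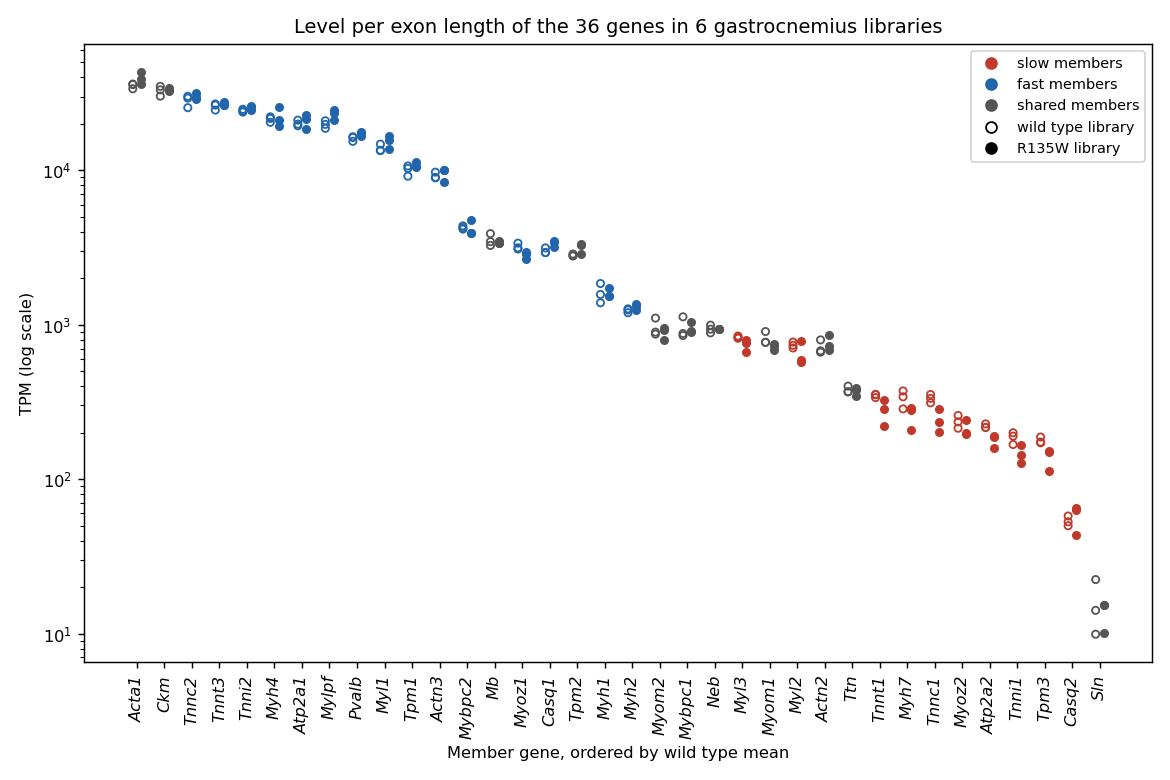
Levels in TPM, on a log scale, of the 36 genes in each of the 6 gastrocnemius libraries, ordered by the wild type mean; open points are wild type and filled points R135W libraries. Fast and shared genes fill the upper end from Acta1 downwards, the slow genes sit at 845 TPM or lower, and Sln is the lowest.

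In the mm10 annotation of the files the fast heavy chain genes lie in a row on the plus strand of chromosome 11, Myh2 (chr11:67171027-67197517), Myh1 (chr11:67200114-67224575) and Myh4 (chr11:67237812-67260447). The slow Myh7 lies at chr14:54970688-54994549 on the minus strand, Tnnc1 at chr14:31208312-31211711 and Tpm3 at chr3:90072651-90100902, both on the plus strand, and Atp2a2 at chr5:122453513-122502225 on the minus strand. Counts are over the exons of each gene. Reads of the myosin heavy chains, tropomyosin 3 and a few others can be shared between genes. Of all 100-base windows of the longest reference transcript, 45.7% of Tpm3 recur in Tpm3-rs7, a retrogene the files do not list, 13.9% of Myh7 recur in other genes, mainly the cardiac Myh6, and 25.6% of Tnnc2 recur in Ube2c transcripts. Myh1 shares 454 windows with Myh2 and 133 with Myh4. No window is shared for 21 members. Fragments were counted for every gene they overlapped, without strand, and exons of D830015G02Rik on the opposite strand cover 7.65% of the exon bases of Myh7. Opposite-strand exons of A930016O22Rik cover 31.9% of those of Ckm. Of the windows of Mb 30.7% recur in other transcripts, and of those of Atp2a1 14.0%. Windows were searched on both strands, so opposite-strand transcripts such as those of Rabep2 for Atp2a1 are included. These are shares of windows or of exon bases, not of counts. How many counts of these members, or of others with shared windows, are uncertain was not tested. Myh6 itself was low, at 4.76 to 7.13 TPM, and so was Ube2c, at 5.74 to 10 TPM (64 to 114 counts).

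Promoters of a slow and a fast member of the troponin C and the myosin heavy chain pairs are shown because troponin C had the widest slow to fast difference and the heavy chains define the fibre types. The stretches are the 250 bases before the annotated start, 5′ to 3′ on the gene's strand, from RefSeq on GRCm38.p6, for Tnnc1 (chr14:31208062-31208311, plus strand), Tnnc2 (chr2:164779735-164779984, minus strand), Myh7 (chr14:54994550-54994799, minus strand) and Myh4 (chr11:67237562-67237811, plus strand). Capitals mark matches to the E-box CANNTG, the core bound by MyoD family factors, or to the MEF2 consensus, which is bound by MEF2 factors; both strands were searched.
Tnnc1: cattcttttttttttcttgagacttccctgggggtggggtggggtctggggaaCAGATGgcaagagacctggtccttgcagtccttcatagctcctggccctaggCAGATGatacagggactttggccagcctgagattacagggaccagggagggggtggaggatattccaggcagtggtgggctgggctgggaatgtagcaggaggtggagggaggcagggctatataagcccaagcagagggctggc
Tnnc2: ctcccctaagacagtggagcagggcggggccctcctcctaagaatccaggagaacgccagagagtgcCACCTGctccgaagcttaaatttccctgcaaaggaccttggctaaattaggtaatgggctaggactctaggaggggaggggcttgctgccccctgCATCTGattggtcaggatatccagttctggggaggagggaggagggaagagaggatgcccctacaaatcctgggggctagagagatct
Myh7: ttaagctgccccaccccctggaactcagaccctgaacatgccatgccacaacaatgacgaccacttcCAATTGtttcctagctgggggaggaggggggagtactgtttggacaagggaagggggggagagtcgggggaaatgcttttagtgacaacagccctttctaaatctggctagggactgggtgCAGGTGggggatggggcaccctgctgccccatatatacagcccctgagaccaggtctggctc
Myh4: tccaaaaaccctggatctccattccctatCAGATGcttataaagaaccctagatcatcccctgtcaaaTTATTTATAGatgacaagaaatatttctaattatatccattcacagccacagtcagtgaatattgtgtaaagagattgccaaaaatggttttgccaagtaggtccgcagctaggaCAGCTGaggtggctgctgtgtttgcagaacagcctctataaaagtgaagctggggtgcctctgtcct
Counted back from the start, the E-boxes begin at -197 and -145 in Tnnc1, at -183 and -88 in Tnnc2, at -183 and -62 in Myh7 and at -221 and -67 in Myh4. Of the 4, Myh4 alone holds a MEF2 match, at -182. Myh4 also holds the letters TATAAA at -213 and -31, left in lower case. On the opposite strand it holds them at -179, within the MEF2 match. RefSeq promoters were matched for 28 of the 36 genes; those of Tnni2, Tnnt3, Atp2a2, Actn3, Myoz1, Neb, Myom2 and Sln were not. An E-box is in 25 of the 28 windows, against 66.2% of 32851 promoters, and in 9 of 9 slow and 8 of 11 fast windows. The slow window of Myl2 belongs to a start 7791 bases away from the start of its counted exons. The MEF2 consensus is in 6 of the 28, against 2.92% of all, and in 2 of 9 slow and 3 of 11 fast windows. A match describes these letters only.

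Between genotypes, slow genes tended to be lower in R135W muscle and fast genes slightly higher, but no member passed the test. The quasi-likelihood test of edgeR, adjusted over 13826 genes at a threshold of 0.05, called 121 genes, 0.875% of those tested, and 0 of the 36. The 121 were 75 higher and 46 lower. Scaled by library totals alone, the test called 134 genes, 67 higher and 67 lower. Limma-voom called 0 members, and DESeq2 called 1, Tnnc1 (log2 fold change of -0.43, adjusted p = 0.00848), where it called 2.03% of all genes it tested. At an unadjusted p under 0.05 stood 10 members by edgeR, 3 higher and 7 lower in R135W; this share of 27.8% compares with 11.5% of all tested genes and with 13.3% of the genes at 50 CPM or more. P-values measure the spread between 3 animals per genotype.

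Of the 10 slow genes, 9 had a log2 fold change below 0, with a median of -0.27, where 50.1% of all tested genes and 58.8% of genes at 50 CPM or more lay below 0 and the median of all tested genes was -0.000196. Casq2 was the exception. Of the 15 fast genes, 14 lay above 0 (13 when scaled by library totals alone), with a median of 0.10, and the exception was Myoz1; 49.9% of all tested genes and 41.2% of genes at 50 CPM or more lay above 0. The 11 shared genes had a median of 0.04, with 7 above and 4 below 0 (6 and 5 by library totals alone). The R135W libraries lay wholly above the wild type libraries for Mylpf, Casq1 and Tpm2 (3 of 36), against 8.24% of all tested genes and 5.69% of genes at 50 CPM or more. They lay wholly below for Tnnc1, Tpm3, Atp2a2, Myl3 and Myoz1 (5 of 36). Among all tested genes 8.4% did so, and among genes at 50 CPM or more 12.7%, a share near that of the members. By class, 4 of 10 slow, 1 of 15 fast and 0 of 11 shared genes lay wholly below. Wholly above lay 0 slow, 2 fast and 1 shared genes. The genes of a class come from the same animals, so these counts are not independent observations.

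**Figure D2:**
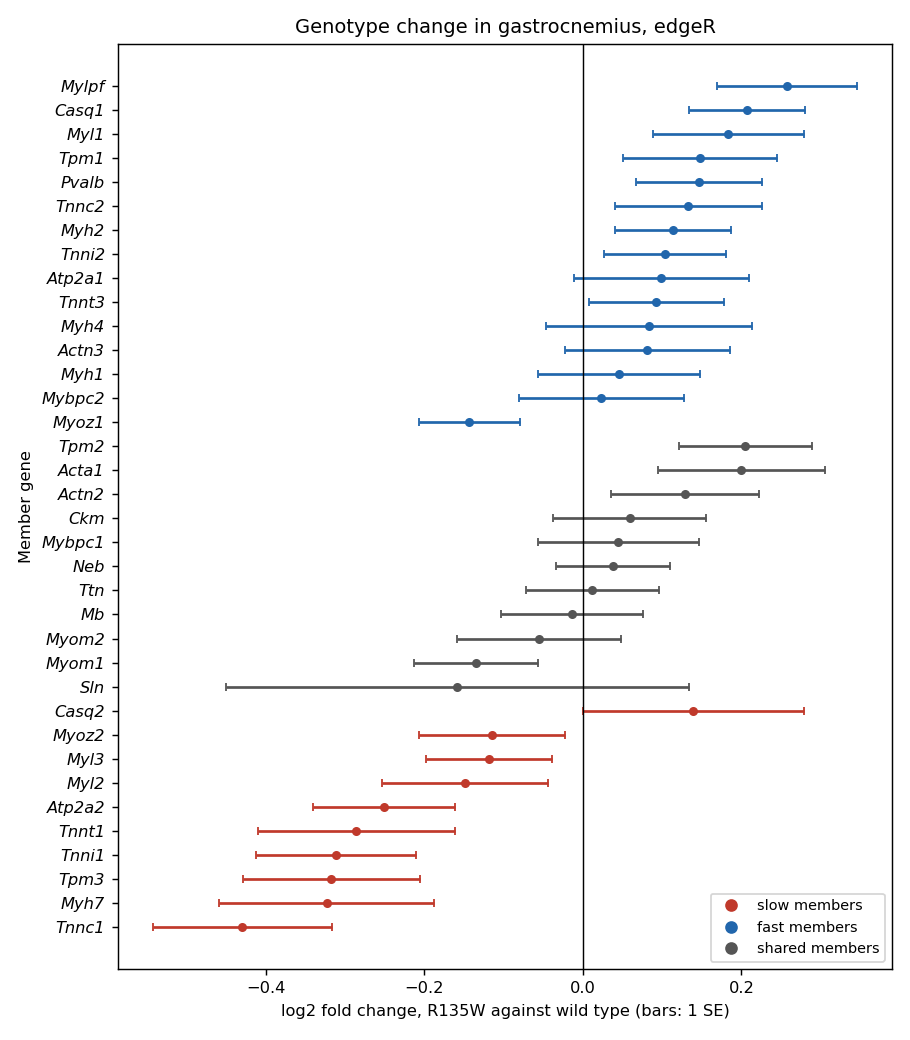
Log2 fold change of R135W against wild type in gastrocnemius for each of the 36 genes from the edgeR fit, with bars of 1 SE, grouped as fast, shared and slow. The slow genes run from -0.43 (Tnnc1) to 0.14 (Casq2) and the fast genes from -0.14 (Myoz1) to 0.26 (Mylpf); none passed the test.

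Among the heavy chains, the motors of the thick filament, the slow one was lower in R135W and the fast ones were near the wild type. Myh7, the slow and cardiac beta heavy chain, stood at 764, 953 and 979.7 CPM in wild type 6, 8 and 9 and at 570.3, 788 and 796 CPM in R135W 5, 7 and 12 (log2 fold change of -0.32, SE 0.14, adjusted p = 0.393). The groups overlapped, since wild type 6 lay below R135W 7 and 12. Myh4, the IIB chain, stood at 57875, 61748 and 53689 CPM in wild type 6, 8 and 9 and at 52992, 57616 and 72977 CPM in R135W 5, 7 and 12, with R135W 5 lowest and R135W 12 highest (log2 fold change of 0.08, SE 0.13, adjusted p = 0.870). Myh1, the IIX chain, stood at 3693, 4359 and 4835 CPM in wild type 6, 8 and 9 and at 4192, 4745 and 4361 CPM in R135W 5, 7 and 12 (log2 fold change of 0.05, SE 0.10, adjusted p = 0.919). Myh2, the IIA chain, stood at 3220.0, 3499 and 3349 CPM in wild type 6, 8 and 9 and at 3397, 3724 and 3769 CPM in R135W 5, 7 and 12 (log2 fold change of 0.11, SE 0.07, adjusted p = 0.615). These 3 fast chains overlapped between genotypes, and the estimate of Myh4 was -0.057 without R135W 12 and that of Myh1 was -0.053 without wild type 6. As a share of the TPM of the 4 chains, Myh7 held 1.35% ± 0.20 in wild type and 1.03% ± 0.13 in R135W (SD, n = 3). Myh4 held 87.1% ± 1.48 and 87.3% ± 1.58, Myh1 6.52% ± 1.07 and 6.45% ± 0.96, and Myh2 5.03% ± 0.23 and 5.20% ± 0.55.

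The light chains stabilise the myosin lever arm and tune the motor. Mylpf, the fast regulatory light chain, had the highest estimate of the fast genes and stood at 6993, 6901 and 6137 CPM in wild type 6, 8 and 9 and at 7252, 8370.4 and 8321 CPM in R135W 5, 7 and 12 (log2 fold change of 0.26, SE 0.09, adjusted p = 0.298). Each R135W library lay above each wild type library. Its slow counterpart Myl2 stood at 198, 215 and 212 CPM in wild type 6, 8 and 9 and at 164, 223 and 177 CPM in R135W 5, 7 and 12 (log2 fold change of -0.15, SE 0.10, adjusted p = 0.647). Here R135W 7 was the highest of all 6 libraries and R135W 5 the lowest. Myl1, the fast essential light chain, stood at 7259, 6895 and 6473 CPM in wild type 6, 8 and 9 and at 6832, 8409.7 and 8177 CPM in R135W 5, 7 and 12 (log2 fold change of 0.18, SE 0.10, adjusted p = 0.511). Myl3, the slow essential light chain, stood at 325, 342 and 329.7 CPM in wild type 6, 8 and 9 and at 269, 324 and 325 CPM in R135W 5, 7 and 12 (log2 fold change of -0.12, SE 0.08, adjusted p = 0.625). All R135W values of Myl3 lay below the wild type, those of R135W 7 and 12 only just.

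The troponin complex held the lowest estimate of all 36 genes. Tnnc1, the slow and cardiac calcium sensor, stood at 97.1, 108 and 108 CPM in wild type 6, 8 and 9 and at 63.9, 90.9 and 77.4 CPM in R135W 5, 7 and 12 (log2 fold change of -0.43, SE 0.11, adjusted p = 0.160). Its groups did not overlap. Tnnc2, the fast sensor, stood at 9235, 9362 and 7652 CPM in wild type 6, 8 and 9 and at 9351, 9929 and 9500.3 CPM in R135W 5, 7 and 12 and overlapped between genotypes (log2 fold change of 0.13, SE 0.09, adjusted p = 0.642). Tnni1, the slow inhibitory subunit, stood at 82.6, 97.5 and 96.7 CPM in wild type 6, 8 and 9 and at 64.3, 83.5 and 75.2 CPM in R135W 5, 7 and 12 (log2 fold change of -0.31, SE 0.10, adjusted p = 0.264). R135W 7 lay just above wild type 6, so the groups of Tnni1 overlapped at that pair alone. The fast inhibitory subunit Tnni2 stood at 7173, 7638 and 6910.0 CPM in wild type 6, 8 and 9 and at 7722, 7451 and 8165 CPM in R135W 5, 7 and 12 (log2 fold change of 0.10, SE 0.08, adjusted p = 0.667). Tnnt1, the slow subunit that ties the complex to tropomyosin, stood at 161, 167 and 151 CPM in wild type 6, 8 and 9 and at 102, 152 and 139 CPM in R135W 5, 7 and 12 (log2 fold change of -0.29, SE 0.12, adjusted p = 0.416). R135W 5 was far below the other 5 libraries of Tnnt1, and R135W 7 and wild type 9 were nearly equal. Tnnt3, the fast form, stood at 13338, 13668 and 11961 CPM in wild type 6, 8 and 9 and at 13486, 13451 and 14614 CPM in R135W 5, 7 and 12 (log2 fold change of 0.09, SE 0.09, adjusted p = 0.746).

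Tropomyosin lies along actin and covers the myosin sites at rest. Tpm3, which includes the slow muscle tropomyosin, stood at 209.9, 216 and 222 CPM in wild type 6, 8 and 9 and at 139, 186 and 196 CPM in R135W 5, 7 and 12 (log2 fold change of -0.32, SE 0.11, adjusted p = 0.306). No R135W library reached the wild type. Tpm1, the fast form, stood at 15486, 15554 and 13049 CPM in wild type 6, 8 and 9 and at 15423, 15850.4 and 17569.9 CPM in R135W 5, 7 and 12, with overlap (log2 fold change of 0.15, SE 0.10, adjusted p = 0.622). Tpm2, the beta form of both fibre classes, stood at 4116, 4281 and 4147 CPM in wild type 6, 8 and 9 and at 4296, 4971 and 5191 CPM in R135W 5, 7 and 12 (log2 fold change of 0.20, SE 0.08, adjusted p = 0.381). All R135W libraries of Tpm2 lay above the wild type, R135W 5 only narrowly. Tpm1 and Tpm3 also encode tropomyosins of the cytoskeleton outside muscle fibres, and counts per gene do not separate these from the sarcomeric forms.

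Calcium handling genes repeated the contrast in part. Atp2a2, the slow and cardiac calcium pump SERCA2, stood at 548, 601 and 538 CPM in wild type 6, 8 and 9 and at 412, 489 and 517 CPM in R135W 5, 7 and 12 (log2 fold change of -0.25, SE 0.09, adjusted p = 0.309). Every R135W library was below the lowest wild type library. Atp2a1, the fast pump SERCA1, stood at 30323, 33514 and 29042 CPM in wild type 6, 8 and 9 and at 33382, 29041 and 37033 CPM in R135W 5, 7 and 12, with overlap (log2 fold change of 0.10, SE 0.11, adjusted p = 0.799). Calsequestrins store calcium in the reticulum. Casq1, the fast form, stood at 2431, 2533 and 2561 CPM in wild type 6, 8 and 9 and at 2673, 2961 and 3051 CPM in R135W 5, 7 and 12, with all R135W libraries above the wild type (log2 fold change of 0.21, SE 0.07, adjusted p = 0.306). Casq2, the slow and cardiac form, stood at 58.9, 57.8 and 63.0 CPM in wild type 6, 8 and 9 and at 49.1, 71.5 and 77.2 CPM in R135W 5, 7 and 12 and was both lowest and highest in R135W libraries (log2 fold change of 0.14, SE 0.14, adjusted p = 0.773). Without R135W 12 the estimate of Casq2 was 0.017, and without R135W 5 it was 0.32, where Casq2 stood alone among the slow genes at an unadjusted p under 0.05 on the higher side. Pvalb, the calcium buffer of fast fibres, ranged over 6044 to 7540.2 CPM in the 6 libraries (log2 fold change of 0.15). Sln ranged over 2.28 to 5.36 CPM (log2 fold change of -0.16, SE 0.29), too widely to place its direction.

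At the Z-disc, which anchors the thin filaments, calsarcin 1 and 2 tie alpha-actinin to calcineurin signalling. Myoz1, the fast calsarcin, was the only fast gene with a negative estimate and stood at 1804, 1844 and 1897 CPM in wild type 6, 8 and 9 and at 1663, 1741 and 1616 CPM in R135W 5, 7 and 12 (log2 fold change of -0.14, SE 0.06, adjusted p = 0.430). Its R135W libraries all lay below the wild type. Myoz2, the slow calsarcin, stood at 109, 125 and 129 CPM in wild type 6, 8 and 9 and at 103, 126 and 106 CPM in R135W 5, 7 and 12, with overlap (log2 fold change of -0.11, SE 0.09, adjusted p = 0.702). The alpha-actinins crosslink actin. Actn3, restricted to fast fibres, ranged over 10920.1 to 13662 CPM (log2 fold change of 0.08) and Actn2 over 877 to 1156 CPM (0.13).

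The remaining genes gave estimates near 0 or within their spread. Acta1 ranged over 23027 to 32065 CPM and was highest in R135W 12 (log2 fold change of 0.20, SE 0.11). Titin, Ttn, the spring between Z-disc and M-band, and nebulin, Neb, the ruler of the thin filament, had log2 fold changes of 0.01 and 0.04. Of the myosin binding proteins C, Mybpc1, the slow type by name but grouped here with the shared genes, stood at 0.04. The fast Mybpc2 stood at 0.02. These 2 genes are not among the 10 isoform pairs described below. The M-band crosslinkers Myom1 and Myom2 stood at -0.13 and -0.05. The oxygen store myoglobin, Mb, stood at -0.01 and Ckm at 0.06. In the main edgeR fit none of these 9 genes reached an unadjusted p under 0.05. Acta1 did by DESeq2, and in the edgeR fits without a filter on low counts and without R135W 5. Myom1 did in the edgeR fit with library totals alone.

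A ratio of slow to fast TPM within a library does not depend on scaling between libraries. In 9 of 10 isoform pairs the R135W mean was below the wild type mean, and in 7 of the 10 every R135W library lay below every wild type library. With 3 against 3 libraries the two-sided exact permutation test cannot go below 0.1, which those 7 pairs reached (0.143 after Benjamini-Hochberg adjustment over the 10). None can pass 0.05. The 10 ratios come from the same 6 libraries, so they are not independent observations. R135W 5 was the lowest library for 7 of the 10 ratios and wild type 9 the highest for 8. How often ratios of other gene pairs separate the genotypes in this way was not tested. For troponin C, Tnnc1 per 100 Tnnc2 was 1.04, 1.14 and 1.39 in wild type 6, 8 and 9 and 0.673, 0.901 and 0.802 in R135W 5, 7 and 12, a ratio of 0.668 between the geometric means. For troponin I the values were 0.690, 0.764 and 0.838 against 0.498, 0.671 and 0.552. For troponin T they were 1.32, 1.33 and 1.37 against 0.824, 1.23 and 1.04. All 3 troponin pairs were apart between the groups.

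Tpm3 per 100 Tpm1 was 1.63, 1.67 and 2.05 in wild type 6, 8 and 9 and 1.08, 1.41 and 1.34 in R135W 5, 7 and 12. Atp2a2 per 100 Atp2a1 was 1.09, 1.08 and 1.11 against 0.741, 1.01 and 0.839. The wild type libraries were close together for the pump, with an SD of 0.02 on the log2 scale, and the R135W libraries had an SD of 0.23. Myl2 per 100 Mylpf was 3.38, 3.71 and 4.13 against 2.69, 3.18 and 2.54. Myl3 per 100 Myl1 was 5.53, 6.13 and 6.30 against 4.87, 4.76 and 4.91, and here the R135W libraries were the close ones. The slow share of both light chain pairs was lower in all 3 R135W libraries.

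Myh7 per 100 fast heavy chains was 1.18, 1.37 and 1.58 in wild type and 0.939, 1.19 and 0.979 in R135W, with 1 crossing, wild type 6 below R135W 7 (exact permutation p = 0.2). The calsequestrin ratio was 1.81, 1.70 and 1.83 against 1.37, 1.80 and 1.89 (exact permutation p = 0.8) and the calsarcin ratio 6.78, 7.60 and 7.66 against 6.98, 8.14 and 7.36 (exact permutation p = 0.9). Both kinds overlapped. For calsarcins both the slow and the fast gene had negative estimates, so the ratio stayed near that of the wild type, with a difference of 0.03 on the log2 scale.

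**Figure D3:**
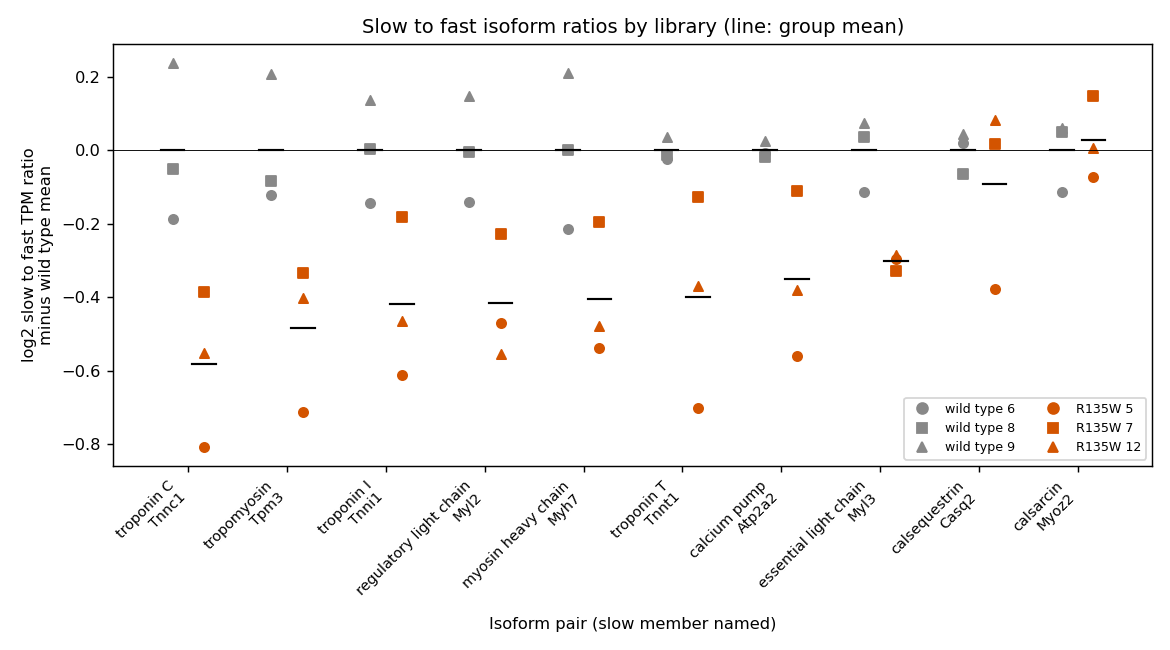
Log2 ratio of slow to fast TPM in each gastrocnemius library, minus the wild type mean, for 10 isoform pairs; grey symbols are wild type, orange symbols R135W, black lines group means. The R135W libraries lie wholly below the wild type for 7 pairs, from troponin C (mean difference of -0.58) to the essential light chain (-0.30), and overlap it for the myosin heavy chain, calsequestrin and calsarcin.

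Single libraries carried much of the contrast. R135W 5 was the lowest library for 10 of 10 slow genes, at 61.3% to 85.4% of the wild type mean. R135W 7 lay at 85.8% to 119% and R135W 12 at 74.2% to 129%, with medians over the 10 genes of 92.7% and 88.1%. Without R135W 5, 9 of 10 slow genes still lay below 0, but their median was -0.14 in place of -0.27, those at an unadjusted p under 0.05 on the lower side were 3 in place of 6, and the troponin T ratio differed by -0.25 in place of -0.40. Without wild type 8 the number of slow genes on the lower side was also 3, with a median of -0.23. It was 8 without R135W 7, with a median of -0.33. Without R135W 12, wild type 6 or wild type 9 it was 5, with medians of -0.31, -0.27 and -0.27. Among the fast genes R135W 12 was the highest library for 10 of 15, and without it 12 of 15 lay above 0 and 0 in place of 2 stood at an unadjusted p under 0.05 on the higher side. That number was 1 without R135W 7, wild type 6 or wild type 9. Wild type 9 was the lowest library for 7 of the 15 fast genes. The median of the fast genes was 0.068 without wild type 9 and 0.073 without R135W 12, in place of 0.10. R135W 12 is also the muscle library with the highest Alb; the part of liver RNA in these values was not tested. R135W 5, at 9.0 weeks, had the age of wild type 6 and 8. The edgeR fit with age as a covariate called 0 members. In that fit 9 of 10 slow genes lay below 0, with a median of -0.28, and Tnnc1 stood at -0.46 (adjusted p = 0.0578).

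**Figure D4:**
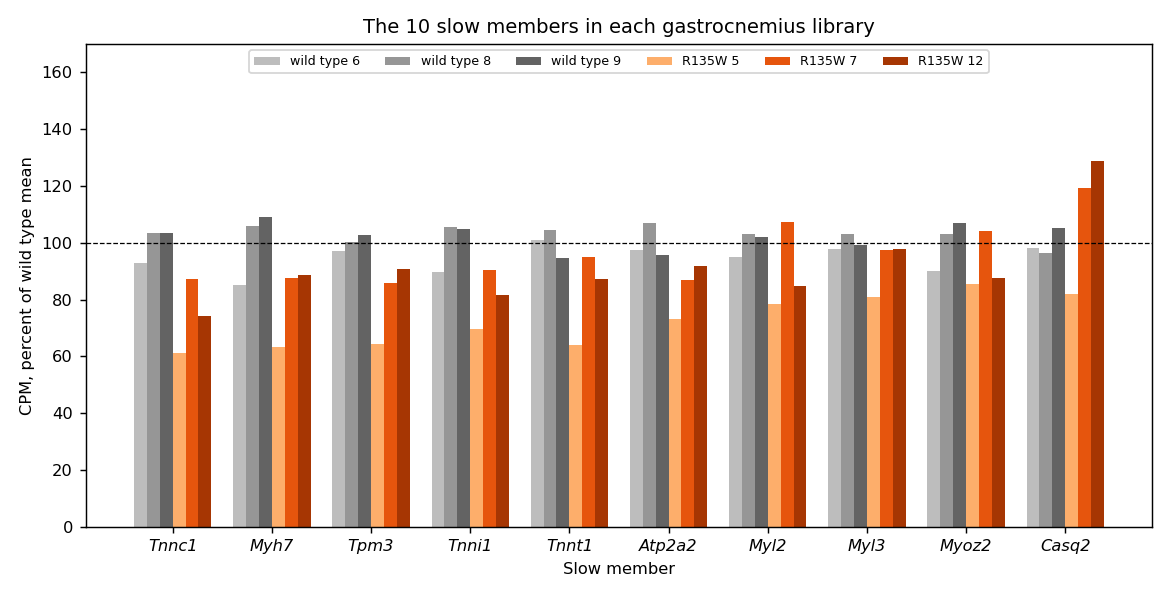
CPM of the 10 slow genes in each gastrocnemius library as percent of the wild type mean of that gene, with the dashed line at 100; bars start at 0. R135W 5 is the lowest bar for every gene; above the line stand R135W 7 and 12 for Casq2 and R135W 7 for Myl2 and Myoz2.

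In the 4 lists of other muscle genes edgeR called 0. For the unadjusted counts of the lists, 916 of all 13826 tested genes stood at an unadjusted p under 0.05 on the higher side and 679 on the lower. Several of the list counts are larger shares than these, and no list was tested as a set. Of 33 further sarcomere proteins tested by edgeR (34 by DESeq2) edgeR called 0 (1 higher and 4 lower at an unadjusted p under 0.05), limma-voom 0 and DESeq2 1, with a median log2 fold change of 0.02. Klhl40, which stabilises thin filament proteins, stood at 145, 172 and 165 CPM in wild type 6, 8 and 9 and at 199.7, 188 and 201 CPM in R135W 5, 7 and 12 (log2 fold change of 0.29, adjusted p = 0.146), and it is the gene DESeq2 called. Mylk4, a kinase of the myosin light chain kinase family, stood at 1022, 1524 and 1889.6 CPM against 1095, 887 and 846 (log2 fold change of -0.65, adjusted p = 0.207), with overlap. Of 24 genes of excitation-contraction coupling edgeR, limma-voom and DESeq2 each called 0, with 4 higher and 0 lower at an unadjusted p under 0.05 by edgeR; among these 4 was the calcium channel subunit Cacnb1 (log2 fold change of 0.26, adjusted p = 0.295).

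Of 8 embryonic and cardiac isoforms tested by edgeR (9 by DESeq2) edgeR, limma-voom and DESeq2 called 0 (1 higher and 1 lower at an unadjusted p under 0.05 by edgeR). Cardiac alpha actin, Actc1, stood at 784, 645 and 617 CPM in wild type and at 724, 918 and 1167 CPM in R135W (log2 fold change of 0.46, adjusted p = 0.291). Myh7b, a slow heavy chain gene related to Myh7, stood at 10.01, 14.4 and 16.5 CPM against 8.16, 11.3 and 10.04 CPM (-0.47, adjusted p = 0.346). The atrial light chain Myl7 was at 0 in all 6 libraries. Of 35 regulators of fibre type and muscle identity edgeR and limma-voom called 0 and DESeq2 1, with 7 higher and 2 lower at an unadjusted p under 0.05 by edgeR and a median of 0.03. The myogenic factor Myf6 stood at 70.04, 69.8 and 73.6 CPM against 56.4, 63.1 and 59.7 CPM (-0.25, adjusted p = 0.145), with no overlap. Mafa, a large Maf factor linked to IIB fibres, stood at 24.8, 32.4 and 26.3 CPM against 37.0, 33.7 and 44.9 CPM (0.47, adjusted p = 0.163), with no overlap, and it is the regulator DESeq2 called.

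Markers of other cells were read beside the slow and fast contrast. The summed level of 9 endothelial markers was 349 to 394 CPM in wild type and 422 to 452 CPM in R135W muscle, without overlap. Of the 9, 7 stood at an unadjusted p under 0.05 on the higher side, against 916 of all 13826 tested genes. The edgeR test passed 1 of the 9 (1 by limma-voom, 2 by DESeq2). The gene that passed was Kdr, a receptor for vascular endothelial growth factor, at 30.3, 27.3 and 27.1 CPM in wild type and 51.8, 44.1 and 48.6 CPM in R135W (log2 fold change of 0.77, SE 0.08, adjusted p = 0.00918). No endothelial marker was at 0. Of the other 11 marker lists edgeR and limma-voom called 0 genes in each, and DESeq2 called 1 each in the smooth muscle, adipocyte and neuromuscular junction lists; unadjusted counts by edgeR were at most 2 per direction in any of them. The T and NK cell list had 1 gene of 7 tested by edgeR and the hepatocyte list 2 of 9. Summed levels overlapped between genotypes for 10 of these 11 lists, among them fibroblast (1345 to 1941 CPM in wild type, 1412 to 1796 CPM in R135W), satellite cell (34.3 to 38.4 and 38.2 to 44.8 CPM) and erythroid markers (177 to 412 and 169 to 641 CPM). The exception was smooth muscle (156 to 184 CPM in wild type and 188 to 203 CPM in R135W). The part of endothelial and smooth muscle RNA in the slow and fast values was not tested.

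Liver gives the background for the same genes. Of the 36, 28 stayed below 1 TPM in every liver library, 11 had enough counts for the test, and the other 25 reached at most 10 counts in any library. Atp2a2, whose pump serves most cells, reached 80.6 TPM, Tpm3 57.3 TPM and Tpm1 26.8 TPM. In liver edgeR called 457 of 13935 genes, 3.28%, and 1 of the 11 members. This was Tpm3, at 47.9, 56.2 and 53.0 CPM in wild type 6, 8 and 9 and at 70.6, 82.6 and 73.8 CPM in R135W 5, 7 and 12, so that all R135W livers lay above the wild type (log2 fold change of 0.53, SE 0.12, adjusted p = 0.0449). Without any 1 of the 6 liver libraries the call was lost. Tpm1 stood at 34.0, 29.6 and 31.8 CPM against 44.7, 41.7 and 38.3 CPM, also without overlap (0.38, SE 0.11, adjusted p = 0.121).

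The genotype change in muscle was set against that in liver by the interaction of genotype and tissue over all 12 libraries. It called 20 of 15414 genes, 0.13%, and 0 of the 11 members tested in both tissues by edgeR; 2 of the 11 stood at an unadjusted p under 0.05, and limma-voom called 0. The estimate of Tpm3 was -0.84 (SE 0.18, adjusted p = 0.111), as its R135W libraries were all below the wild type in muscle and all above it in liver. Tnnc1 had an estimate of -0.83 (SE 0.34, adjusted p = 0.436), but it rests on 8 to 18 counts per library in liver. Atp2a2 had one of -0.29 (SE 0.20, adjusted p = 0.689). Tnnt1 had an estimate of -0.75 (SE 0.52, adjusted p = 0.684) and rests on 11 to 41 counts per library in liver. Mylpf, Casq1, Atp2a1 and Myom1 rest on 9 to 69 counts there. A difference between the tissues did not pass for any slow gene tested in both. Low liver counts limit what this comparison can show for these genes.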

How the data were processed

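Poly(A) RNA of 6 gastrocnemius and 6 liver samples was read as 100-base pairs. Per the file headers, the deposited values are raw counts per gene symbol over UCSC mm10 exons, made by the authors with featureCounts 1.5.2 (read pairs, primary alignments, no strand option, each overlapped gene counted). The submitters' processing notes name STAR 2.4.0, a read aligner. Depth is given as total counts per library in the results; p-values measure the spread between 3 animals per group.

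Genotype was tested within a tissue with edgeR 4.0.16 in R 4.3.3 (TMM, filterByExpr, quasi-likelihood F test, p-values adjusted by Benjamini-Hochberg over every tested gene, threshold 0.05). The SE was taken as the log2 fold change over the root of its F statistic. TPM used the exon length in the files. DESeq2 1.42.0, limma-voom (limma 3.58.1), other scalings and filters, age, all 12 libraries and leaving out each library were alternatives. The members, the 4 pathway and 12 marker lists and the named genes (all members, both genes of each of the 10 pairs, up to 2 genes of smallest p per pathway list without a call, Mars2) were chosen with earlier results of these data known. Values of marker genes beyond this rule (Kdr, Alb) were chosen after they were seen. A gene that the rule named is not reported here. Numbers in the labels pair muscle with liver, with the same genotype and age, and the counts do not settle this pairing: deviations of an animal's 2 libraries from their group means correlated at 0.00337 to 0.0690, against -0.0549 to 0.0372 for other animals. All replicate pairs differed by more than counting error.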

Additional observations from a re-analysis of the deposited data

Results flagged for a closer look

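The estimates of Tpm3 had opposite signs in the 2 tissues. Its R135W libraries were all below the wild type in gastrocnemius (log2 fold change of -0.32, adjusted p = 0.306, not called by edgeR) and all above it in liver (0.53, adjusted p = 0.0449, a call lost without any 1 liver library). The difference between the changes, tested as an interaction by edgeR, was -0.84 (adjusted p = 0.111), which missed the threshold; the adjusted p ranged from 0.0913 to 0.337 over the alternatives. The share of counts from the sarcomeric and from the cytoskeletal tropomyosins of this gene was not tested.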

How the results depend on the processing

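Genes called in gastrocnemius numbered 121, 267 by DESeq2, 20 in a fit of all 12 libraries and 3 to 106 with 1 library left out (3 without wild type 8, 9 without wild type 9, 21 without R135W 7, 38 without wild type 6, 47 without R135W 12). Members called numbered 0, and 1 by DESeq2. Members at an unadjusted p under 0.05 numbered 10, 3 with all 12 libraries and 5 to 10 with 1 library left out (5 without R135W 12 or wild type 8, 6 without wild type 6 or 9). In liver 457 genes were called, 774 by DESeq2 and 84 to 285 with 1 library left out; the 1 member called became 0 in each of those 6 fits. The tissue difference called 20 genes, 7 by limma-voom and 1 to 7 with 1 animal left out. With the animal number as a block it called 16 genes and 0 members, so this pairing changed the number of genes called but no member call. Of 375 alternative fold changes of 25 members, 371 kept direction and side of the threshold, 1 passed it (Tnnc1 by DESeq2) and 3 changed sign: with 1 library left out Myh1 ranged from -0.053 to 0.138 and was -0.0066 without R135W 7, and Myh4 from -0.057 to 0.181. Of the other 11 members, 7 changed sign in at least 1 gastrocnemius fit: Sln (-0.40 to 0.25), Mb (-0.086 to 0.087), Mybpc2 (-0.095 to 0.084), Ckm, Mybpc1, Myom2 and Ttn. The calsequestrin ratio ranged from -0.18 to 0.050 and the calsarcin ratio from -0.034 to 0.078; the other 8 ratios stayed below 0 in every such fit. The cause was not tested. Without TMM the median of all genes moved to -0.03. The gastrocnemius calls then numbered 134, 67 higher and 67 lower, in place of 75 and 46. Slow genes below 0 numbered 9 in every gastrocnemius fit. Depth limits Sln, at 56 to 151 counts per muscle library, and in liver the 25 members with at most 10 counts. Low liver counts also limit Tnnc1, Tnnt1, Mylpf, Casq1, Atp2a1 and Myom1.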
